A study of Sus scrofa with 12 samples.

Results

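IGFBP2, IGFBP3, IGFBP4 and IGFBP5 are 4 genes for insulin-like growth factor (IGF) binding proteins, and they were taken as every entry whose listed gene is one of those symbols in 6 peak lists of N6-methyladenosine (m6A). They make up 4 of the 2159 genes with a peak and 35 of the 13487 peaks. The lists come from longissimus dorsi, the long back muscle, of 5-day-old pigs of 2 breeds, Large White (LargeWhite in the labels) and Ningxiang (NingXIANG in the labels). Methylated RNA immunoprecipitation and sequencing (MeRIP-seq) was run on 3 replicates per breed, each with an input library of fragmented mRNA that was not enriched, and each list holds the peaks of 1 replicate. The pigs carry no treatment or engineered allele in the labels. The labels do not tell whether replicates are separate animals, and p-values below cover only the variation among these samples, part or all of which may be technical.

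IGF binding proteins are secreted. They hold IGF1 and IGF2 in the circulation and in tissue, and so control how much ligand reaches the IGF1 receptor, a main growth signal of skeletal muscle. Members of the family can restrain or prolong IGF action, and proteases such as PAPPA release the ligand by cutting some of them. In these genes the first exon encodes the signal peptide and the N-terminal IGF-binding domain, the second exon the variable linker, and the following exons the C-terminal thyroglobulin-type domain. m6A is an internal mark of mRNA that reader proteins use to set the stability and translation of a transcript.

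IGFBP4 and IGFBP5 had peaks in all 6 lists, at the same exons in each. IGFBP2 had peaks in 3 of 3 Ningxiang lists and 0 of 3 Large White lists, and IGFBP3 had the opposite pattern. Of all genes with a peak, 35.7% had one in all 6 lists, 0.741% had the pattern of IGFBP2 and 1.34% had the pattern of IGFBP3. The number of peaks per list was 0 in Large White and 1.33 ± 0.577 in Ningxiang for IGFBP2 (SD, n = 3), and 1 against 0 in every list for IGFBP3. For each of these genes the exact two-sided permutation p was 0.1 with n = 3 per breed, the smallest this design allows, and 1 after Benjamini-Hochberg adjustment over all 2159 genes. The input and enriched read counts were not analysed here, so less transcript and less m6A cannot be told apart where a list holds no peak.

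**Figure D1:**
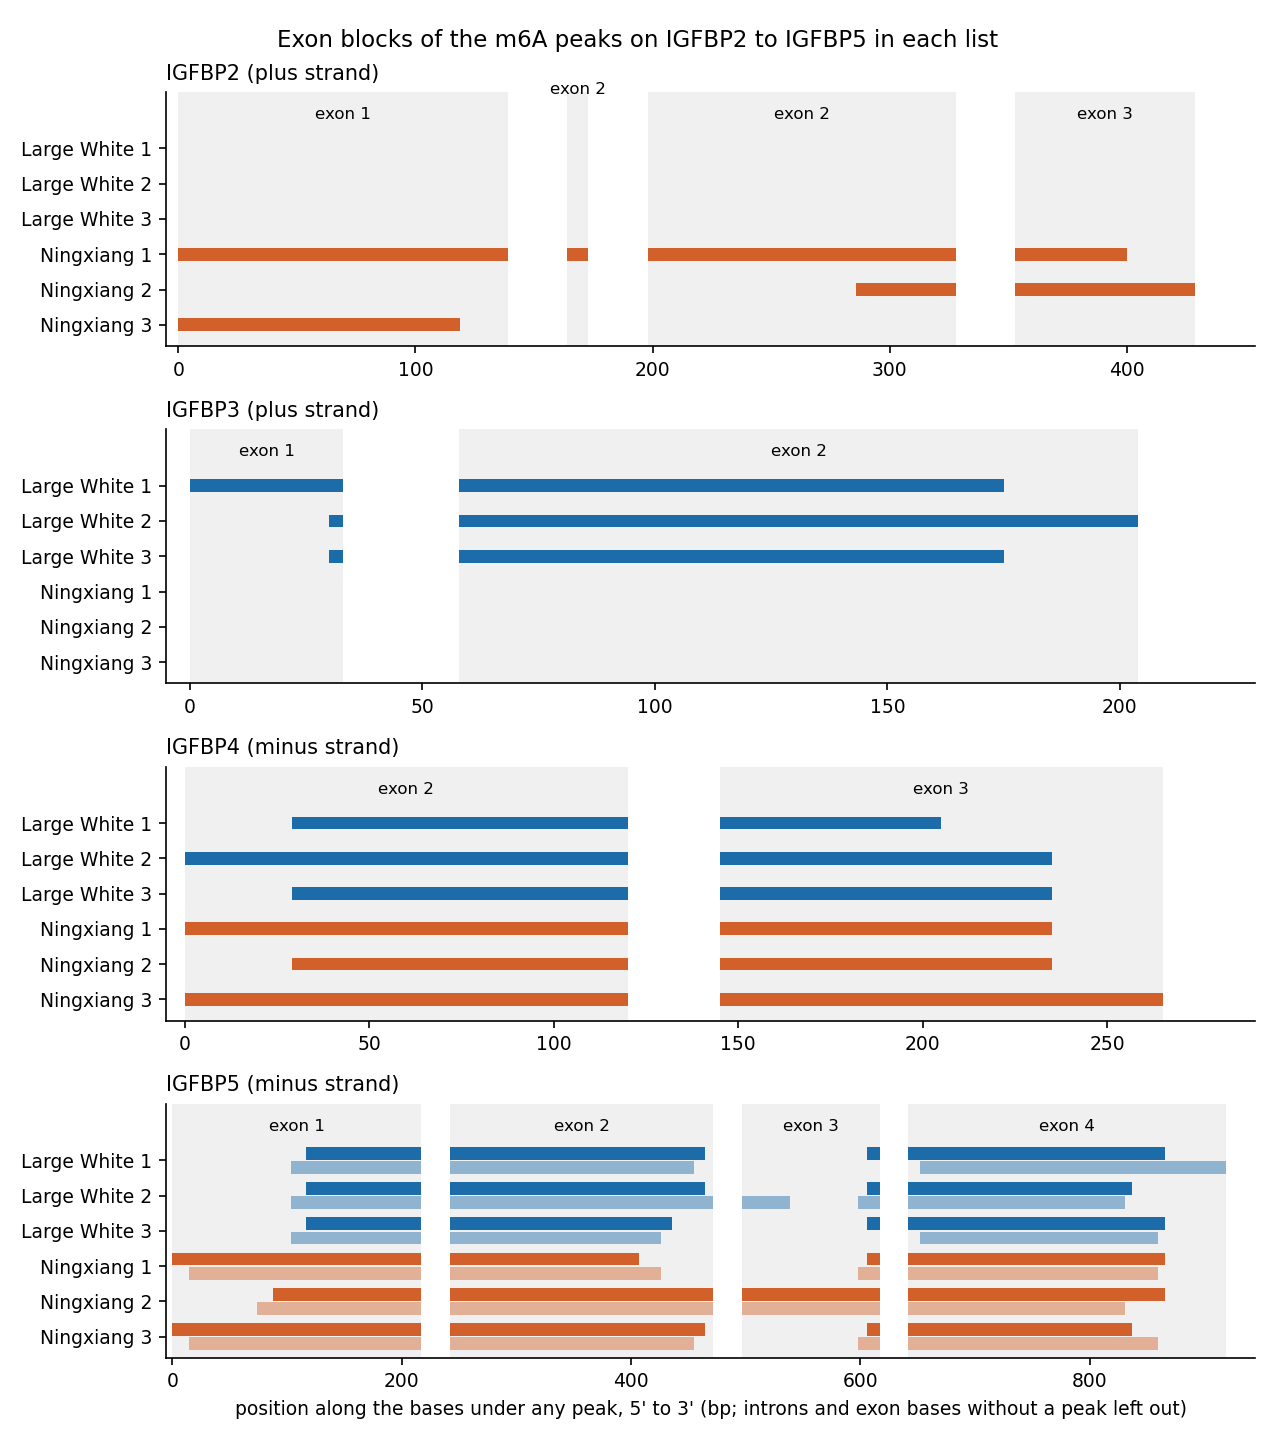
Exon blocks of every peak on the 4 genes, 1 row per list, drawn along the bases that lie under any peak from the 5′ to the 3′ end of the gene (bp, grey spans, with introns and uncovered exon bases left out). Blue is Large White and orange is Ningxiang. The paler IGFBP5 bars are peaks listed under a second gene ID. In Ningxiang lists IGFBP2 is covered at exon 1, at exons 2 and 3 or, in replicate 1, at both. IGFBP3 is covered in Large White lists at exons 1 and 2, and IGFBP4 and IGFBP5 in all 6 lists.

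IGFBP2 binds both IGFs and can also attach to integrins on the cell surface. The gene lies on the plus strand of chromosome 15, from 118822092 to 118850984 (susScr11), and has 4 exons. Ningxiang replicate 1 had 2 peaks on it. The first joined the last 139 bases of exon 1 to the first 9 bases of exon 2, had a fold of 2.88 over input and a log10 p of -3.65. The other joined 130 bases of exon 2 to 47 bases of exon 3, with a fold of 2.07 and a log10 p of -6.15. Replicate 2 had 1 peak over 42 bases of exon 2 and 76 bases of exon 3, with a fold of 2.28 and a log10 p of -5.7. In replicate 3 the peak lay wholly in exon 1, at 118822445 to 118822563, with a fold of 5.34 and a log10 p of -6.53.

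The Ningxiang lists therefore shared IGFBP2 as a gene but no site of it in all 3. Replicates 1 and 3 had 119 bases of exon 1 in common, starting at 118822445. Replicates 1 and 2 had 42 bases of exon 2 and 47 bases of exon 3 in common, on either side of an intron of 746 bases. The exon 1 bases lie 353 bases from the listed start of the gene, and the other site lies at the junction of exons 2 and 3. Which part of the protein these bases encode was not mapped here. Neither site had a peak in a Large White list.

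IGFBP3 is the main carrier of IGFs in blood, where it forms a complex with the acid-labile subunit encoded by IGFALS. The gene lies on the plus strand of chromosome 18, from 50002924 to 50009425, and has 5 exons. Each Large White list had 1 peak on it, across the junction of exons 1 and 2, whose intron is 2931 bases long. Replicate 1 covered 33 bases of exon 1 and 117 of exon 2, replicate 2 covered 3 and 146, and replicate 3 covered 3 and 117. The 117 bases of exon 2 from 50006362 to 50006478 were common to all 3 lists. Unlike IGFBP2, the replicates of IGFBP3 thus had 1 site in common, and nearly all of it was exon 2. The folds were 3.39, 3.14 and 1.85 in replicates 1, 2 and 3, and the log10 p were -5.8, -6.94 and -5.58. Replicate 3 was low by fold and similar to the others by p.

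The peaks of IGFBP2 and IGFBP3 were among the weaker ones of their lists by p. Ranked within their own list, with 100 as the percentile of the lowest p, IGFBP2 peaks stood at percentiles 8.26 to 32.3 and IGFBP3 peaks at 23.3 to 37.0. By fold the same peaks ranged widely, from percentile 30.1 to 90.0 for IGFBP2 and from 12.4 to 74.1 for IGFBP3. IGFBP4 and IGFBP5 were the reverse, at percentiles 83.2 to 93.4 and 92.1 to 98.4 by p, while by fold they ran from 33.1 to 79.8 and from 23.7 to 88.0. List medians were -9.395 to -11 for log10 p and 2.42 to 2.605 for fold. The read counts behind these p-values were not analysed, so a rank by p is not read as a level of m6A. With only the stronger 50% of each list by p, neither IGFBP2 nor IGFBP3 had a peak in any list. With a fold of at least 2, IGFBP3 lost its peak in Large White replicate 3 and IGFBP2 kept a peak in all 3 Ningxiang lists. The weakest peaks called in the Ningxiang lists had log10 p of -2.38, -2.32 and -2.4, and in the Large White lists -2.27, -2.06 and -2.13.

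**Figure D2:**
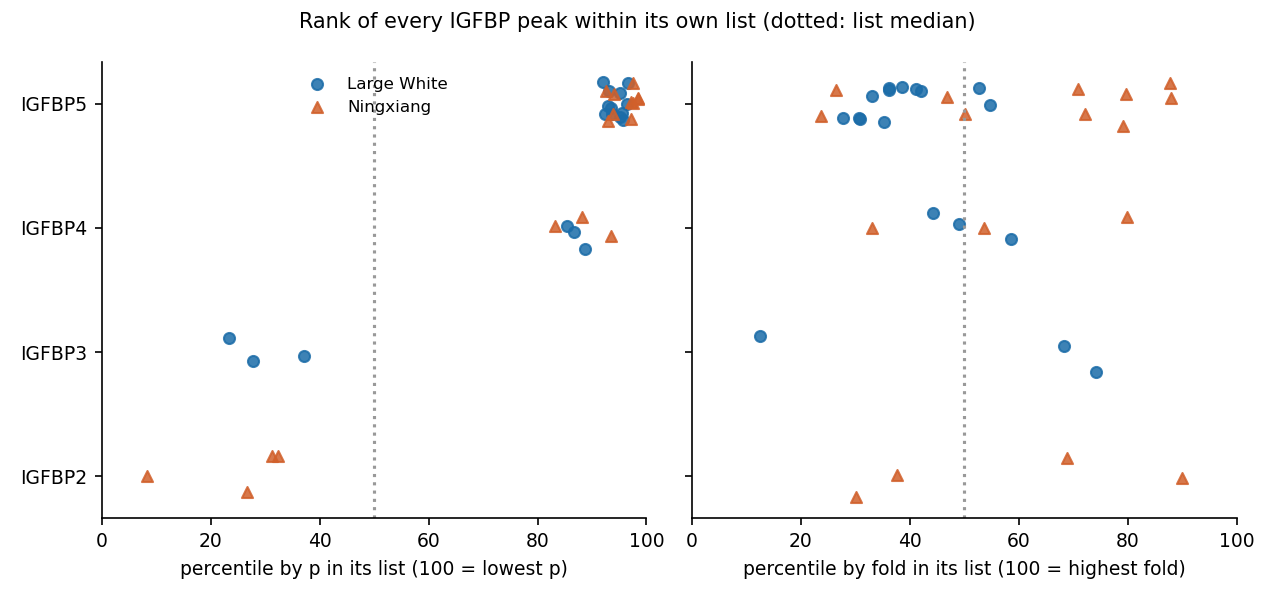
Percentile of every peak of the 4 genes within its own list, by p (left) and by fold (right). Circles are Large White, triangles are Ningxiang, the dotted line is the list median, and vertical scatter within a gene has no meaning. By p, all peaks of IGFBP2 and IGFBP3 lie at percentile 37.0 or lower and all peaks of IGFBP4 and IGFBP5 at 83.2 or higher, while by fold the genes overlap.

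IGFBP4 mostly restrains IGF action and is cut by PAPPA when IGF is bound. The gene lies on the minus strand of chromosome 12, from 21966524 to 21980043, and has 4 exons. Every list had 1 peak on it, and each of the 6 peaks crossed the same junction of exons 2 and 3, over an intron of 1205 bases. The bases common to all 6 were 91 of exon 2, from 21971835 to 21971925, and 60 of exon 3, from 21970570 to 21970629. The outer edges differed in steps of about 30 bases. The exon 2 edge stood at 21971925 in 3 lists and at 21971954 in the other 3, and the exon 3 edge at 21970510, 21970540 or 21970570. Peaks covered 151, 210 and 181 exonic bases in Large White and 210, 181 and 240 in Ningxiang, so the breeds overlapped (exact permutation test over 3 against 3 lists, p = 0.5, or 1 when adjusted over all genes).

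The fold of the IGFBP4 peak was 2.54, 2.8 and 2.36 in Large White replicates 1, 2 and 3, and 2.5, 2.2 and 3.87 in the same replicates of Ningxiang. Its log10 p was -41.7, -40.2 and -52 in Large White and -40.3, -29 and -86.6 in Ningxiang. The highest and the lowest values were both in Ningxiang, and the Large White values lay between them. Mean folds were 2.57 ± 0.221 and 2.86 ± 0.890 (SD, n = 3). These folds are the authors' value for each peak, given side by side and not as a comparison of the level of m6A.

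IGFBP5 is the most conserved of these proteins, rises when muscle precursor cells differentiate, and binds the extracellular matrix. The gene lies on the minus strand of chromosome 15, from 118861816 to 118877787, and has 4 exons as listed. It is the neighbour of IGFBP2. The RefSeq table for Sscrofa11.1 places 10830 bases between them, and the genes point towards each other. IGFBP5 had peaks in all 6 lists, at p-values far lower than those of IGFBP2 in the Ningxiang lists.

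Peaks on IGFBP5 were listed under both its own gene ID and a second one, LOC100738836, which occupies the same place with its own transcript of 4 exons. The exon label of every IGFBP5 entry names that transcript, also under the own ID, so the exon numbers here follow it. Of the 22 entries of IGFBP5, 11 were under each ID. In every list, paired entries at the same exons shared 91.1% to 100% of the exonic bases of the shorter one, and their folds differed by 0.02 to 0.09. The 4 peaks that most lists gave for IGFBP5 are thus 2 sites with 2 entries each. Whether reads of this locus were counted for both gene models is not given in the labels. Counted under its own ID alone, IGFBP5 had 2 peaks in every Large White list and 2, 1 and 2 in Ningxiang replicates 1, 2 and 3.

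The 2 sites of IGFBP5 lay towards opposite ends of the listed gene model with its introns left out. Whether that model holds the full untranslated regions of the transcript was not checked. The 5′ site joined exon 1 to exon 2 over an intron of 13296 bases, and the 3′ site covered exon 4 with or without the adjoining 11 or 19 bases of exon 3. The 3′ site ended 6 to 94 bases from the listed 3′ end of the gene. In Ningxiang replicate 2 there was 1 peak in place of 2, and it ran through all 4 exons and took in the whole 120 bases of exon 3. Under the second ID, the 5′ peak of Large White replicate 2 also reached 42 bases into exon 3. In the other 4 lists, exon 3 was without a peak except for its 11 or 19 bases next to exon 4.

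In exon 1 the peaks of IGFBP5 reached farther towards the start of the transcript in every Ningxiang list than in any Large White list. Under the gene's own ID they covered 100 bases of exon 1 in all 3 Large White lists and 217, 129 and 217 in Ningxiang replicates 1, 2 and 3. Under the second ID the values were 113 in all 3 Large White lists and 202, 143 and 202. Ningxiang replicate 2, at 129 and 143, was the closest to Large White, and its exon 1 bases lay in the single peak over all 4 exons. Of 771 genes with a peak in all 6 lists, 3.37% had the 5′ edge of their peaks farther 5′ in every Ningxiang list, and 6.23% in every Large White list. The edge stood 234 bases from the listed gene start in Large White under the own ID, and 117, 205 and 117 in Ningxiang. Over the whole gene, peaks covered 624, 599 and 542 exonic bases in Large White and 644, 717 and 677 in Ningxiang.

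The breeds did not overlap in the exonic bases covered on IGFBP5, 588 ± 42.0 in Large White and 679 ± 36.6 in Ningxiang (SD, n = 3, exact two-sided permutation p = 0.1). Adjusted over all 2159 genes that p was 0.935. Of 771 genes with a peak in all 6 lists, 3.5% covered more bases in every Ningxiang list, as IGFBP5 did, and 10.8% covered more in every Large White list. IGFBP4, the other of the 4 with peaks in every list, did neither.

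The fold of the 5′ site of IGFBP5 under its own ID was 2.35, 2.26 and 2.58 in Large White replicates 1, 2 and 3. In Ningxiang it was 3.41 in replicate 1 and 4.87 in replicate 3, and the single peak over all exons in replicate 2 had 3.16. The 3′ site had 2.18, 2.17 and 2.25 in Large White, and 2.36 and 2.1 in Ningxiang replicates 1 and 3. Within each list with both sites, the 5′ site had the higher fold of the pair. The ratio of the 5′ to the 3′ fold was 1.08, 1.04 and 1.15 in the Large White lists and 1.44 and 2.32 in the Ningxiang lists. Under the second ID it was 1.08, 1.08 and 1.15, against 1.39 and 2.41. This ratio is taken within a list and was not tested, since only 2 Ningxiang lists had both sites. Its 5′ folds are also over unlike bases. Under the own ID the 5′ peak covered 323, 323 and 294 exonic bases in Large White, and 382 and 440 in Ningxiang replicates 1 and 3.

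**Figure D3:**
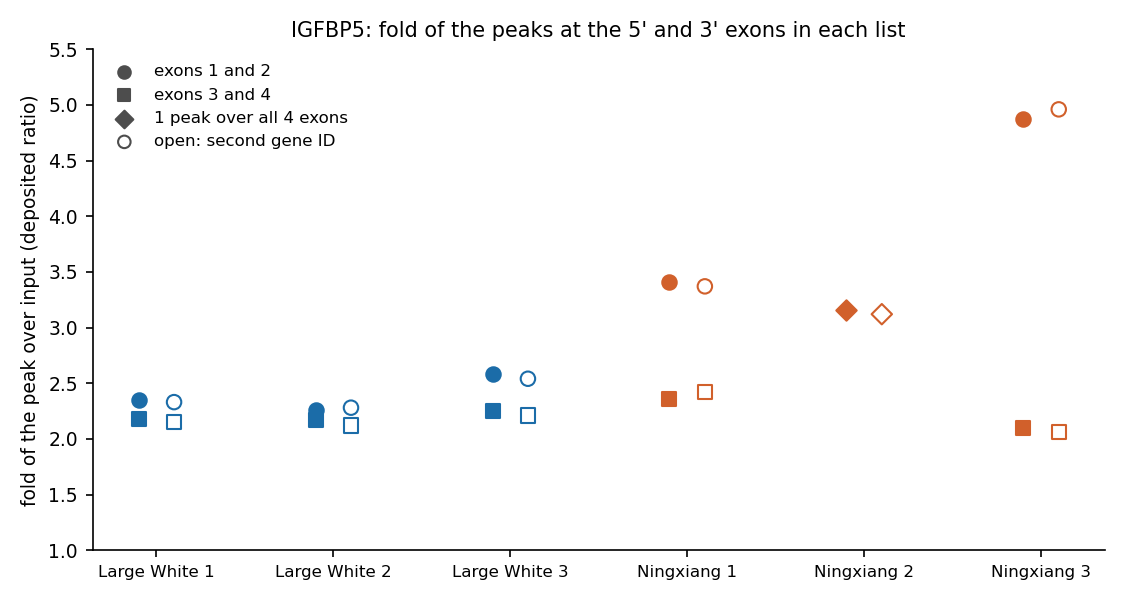
Fold over input of each IGFBP5 peak, by list. Circles are the peak over exons 1 and 2, squares the peak over exons 3 and 4, and diamonds the single peak over all 4 exons in Ningxiang replicate 2. Filled symbols are the gene's own ID and open ones the second ID. The squares lie between 2.06 and 2.42 in both breeds, and the Ningxiang circles at 3.37 to 4.96 lie above the Large White circles at 2.26 to 2.58.

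The log10 p of the 5′ site under the own ID was -135, -121 and -173 in Large White and -177 and -366 in Ningxiang replicates 1 and 3, and the peak over all exons in replicate 2 had -198. The 3′ site had -77.7, -86.4 and -72.9 in Large White, and -69.7 and -78 in the 2 Ningxiang lists. By both measures the 5′ site was the stronger in each list that had both. The highest IGFBP5 fold of each list, over both IDs, was 2.40 ± 0.157 in Large White and 3.84 ± 0.975 in Ningxiang (SD, n = 3), with no overlap. Among the 771 genes with a peak in all 6 lists, 5.58% had their best fold higher in every Ningxiang list and 8.3% in every Large White list. These folds too describe each list and are no comparison of the level of m6A.

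Ningxiang replicate 3 had the highest best fold of its breed for IGFBP2, IGFBP4 and IGFBP5, at 5.34, 3.87 and 4.96. Its list also had the highest median fold of the 6, at 2.605. Without it, the best folds of IGFBP5 in Ningxiang were 3.41 and 3.16, against 2.28 to 2.58 in Large White. The breeds did not overlap with every list in use, so leaving out a list cannot end that order and is no check of it. The best folds of IGFBP4 in Ningxiang without replicate 3 were 2.5 and 2.2, inside or below its Large White range of 2.36 to 2.8. IGFBP2 had 2.88 and 2.28 there.

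**Figure D4:**
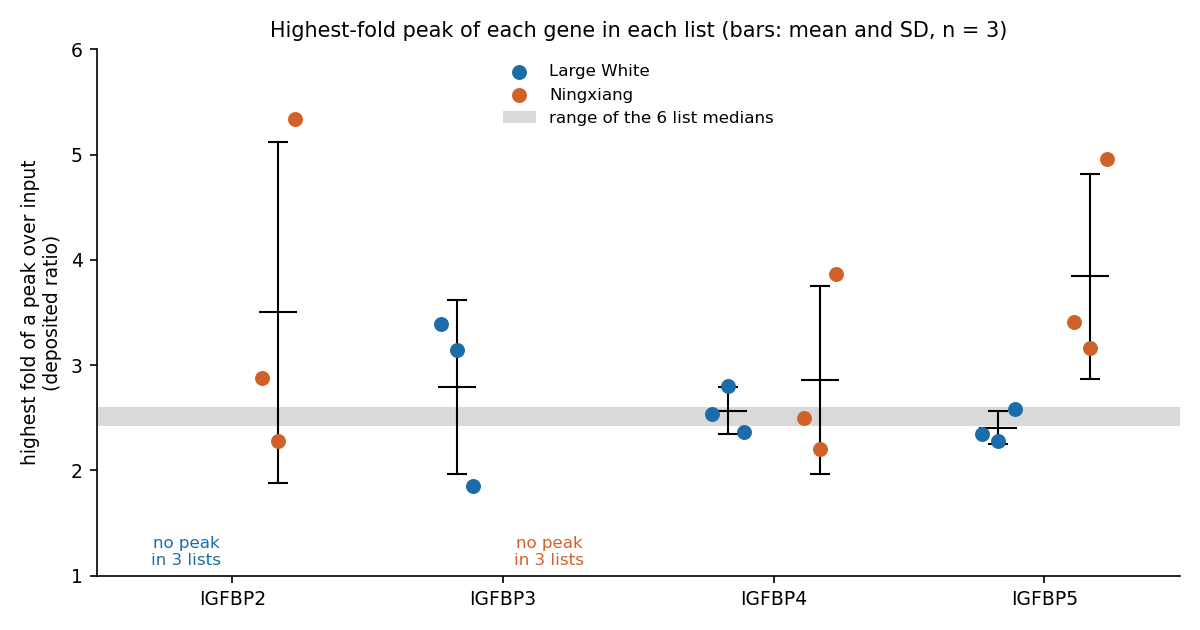
Highest fold over input of any peak on each gene in each list (points), with the mean and SD of 3 lists (black bars). The grey band is the range of the 6 list medians, 2.42 to 2.605. IGFBP5 points of Ningxiang, at 3.16 to 4.96, lie above those of Large White, while those of IGFBP4 overlap, and IGFBP2 and IGFBP3 have points in 1 breed each.

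Most peaks of the 4 genes crossed a splice junction. Under each gene's own ID this held for 23 of 24 entries, the exception being the exon 1 peak of IGFBP2 in Ningxiang replicate 3. Over both IDs of IGFBP5 it held for 32 of 35 entries, or 91.4%, and of all peaks in a list 54.0% to 59.3% did so. Entries in several lists at 1 junction are the same site seen again, so this describes 7 junctions in all. Only IGFBP5 had peaks in its last listed exon. All entries were listed as exonic and none in an untranslated region. Over all genes, the share listed in 3′ untranslated regions was 28.9% on the plus strand but 3.65% on the minus strand, so the class was not read for IGFBP4 and IGFBP5.

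Of 26 other genes of the IGF system, 14 had a peak in some list, 7 of them in all 6, and 16 had a curated transcript that could carry one. Among all genes with a peak, 35.7% were in all 6 lists, and the share of curated genes with a peak was not computed. None of the 14 had peaks throughout one breed and in 0 lists of the other. Over all genes with a peak, 0.741% had this for Ningxiang and 1.34% for Large White, so 0 of 14 is not read as a result. Among the binding proteins outside the 4, IGFBP7 had peaks in 5 lists, and IGFBP1 and IGFBP6 had none. IGFBP1 is the neighbour of IGFBP3, 9061 bases away in the RefSeq table. IGFALS, the partner of IGFBP3 in blood, had 2 peaks in Large White replicate 3 alone. PAPPA and PAPPA2, which cut IGFBP4 or IGFBP5, had no curated transcript here, while their inhibitors STC1 and STC2 had peaks in 4 and 2 lists.

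The ligand IGF2 had 1 peak in every list and IGF1 had 1 in each list except Large White replicate 1. The receptor IGF1R had 3 or 4 peaks in every list. IGF2R, which clears IGF2 from the cell surface, had 1 peak in each Large White list and 4, 2 and 4 in Ningxiang. IRS1, the adaptor that passes the signal on, had 4, 4 and 3 against 5, 5 and 6. IGF2R and IRS1 were the 2 of these 14 genes with more peaks in every Ningxiang list than in any Large White list, and none had the reverse. Of all genes, 1.34% had the first order and 2.5% the reverse. IGFBP2 and IGFBP3 fall in these classes by their presence alone. IGF2R and IRS1 had peaks in all 6 lists, as had 35.7% of all genes. The share with either order among those genes was not computed, so 2 of 14 is not read as an excess. AKT1, the kinase downstream of the receptor, and FOXO1 and FOXO3, transcription factors that it inhibits, also had peaks in all 6 lists.

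**Figure D5:**
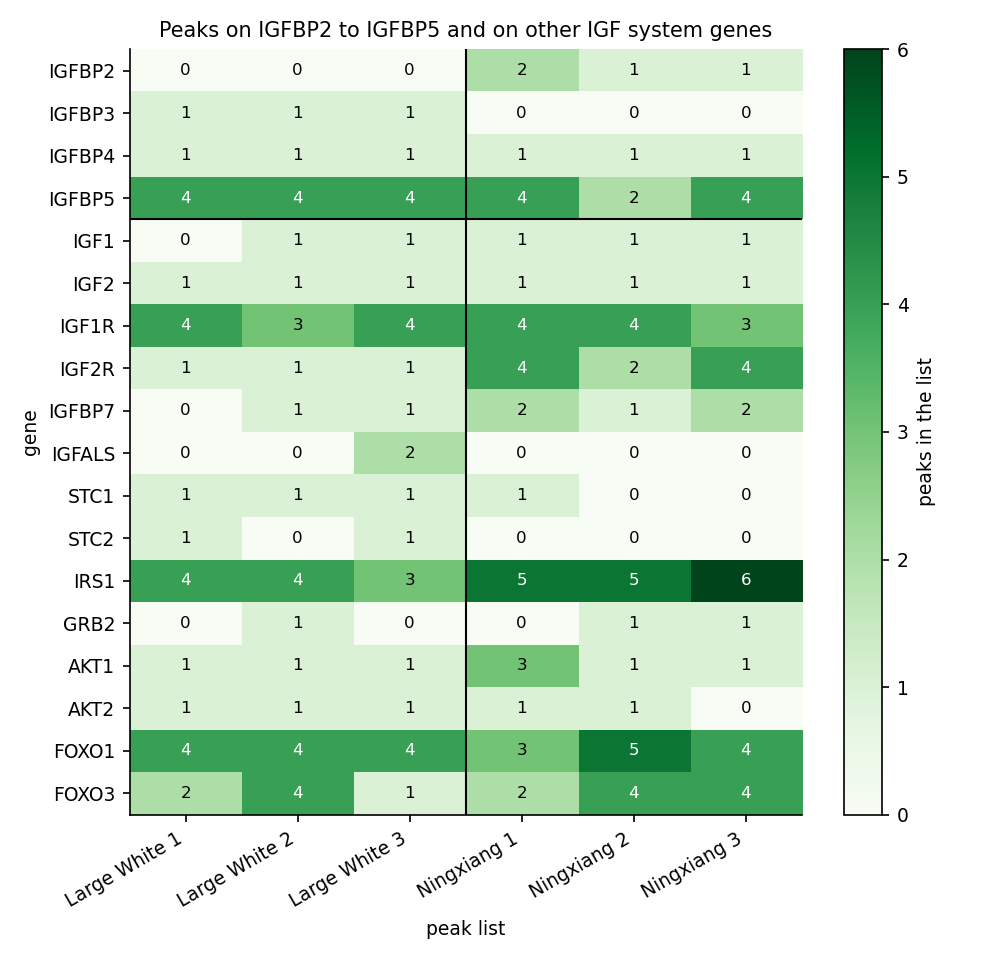
Number of peaks on each gene in each list, for the 4 binding proteins (above the line) and the 14 other IGF system genes with a peak. Darker green is more peaks, and IGFBP5 counts include both gene IDs. IGFBP2 and IGFBP3 are the genes shown with 0 in every list of one breed and a peak in every list of the other. Over all genes with a peak, 0.741% had the pattern of IGFBP2 and 1.34% that of IGFBP3.

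Of muscle markers, 10 of 13 had a peak, 8 of them in all 6 lists, among them CKM, DES, MYH1 and RYR1. ACTA1 had none, nor had MB and TTN, which had no curated transcript in the RefSeq table. Markers of other cells of the tissue also had peaks: 3 of 3 for endothelium, 3 of 5 for fibroblasts, 3 of 4 for adipocytes and 2 of 3 for macrophages. COL1A1 of the fibroblast list and CSF1R of the macrophage list also had no peak and no curated transcript there. COL3A1 of the fibroblast list and PLIN1 of the adipocyte list had no peak although they had a curated transcript, as had ACTA1. Of 3 liver markers, ALB and TTR had none and APOA1 had a peak in 1 list. Among all genes with a peak, 35.7% were in all 6 lists. The share of curated genes with a peak was not computed, so these counts are not read as a measure of cell types. IGF binding proteins can be made by several of these cells, and in whole muscle fewer cells of a type and less RNA per cell cannot be told apart. Their part in the breed patterns of IGFBP2 and IGFBP3 was not tested.

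The genes most like each member were found by the mean absolute difference, over the 6 lists, in the percentile of the gene's highest fold, with 0 where a list has no peak. For IGFBP2 these were WIPI2 at 6.94 percentile points, ELAC2 at 7.14 and CBR3 at 8.03, of which CBR3 had peaks in only 2 Ningxiang lists. For IGFBP3 they were UBE2E2 at 3.95, SOCS4 at 5.17 and HSPA1L at 5.29, each with peaks in Large White replicates 1 and 2 only. HSPA1L belongs to a family of near-identical genes, so its reads may be shared. For IGFBP4 they were TAB1 at 6.14, SELENOO at 6.85 and RYR1 at 9.52, and for IGFBP5 TBC1D10B at 5.10, CKAP4 at 6.95 and EGFR at 7.82, all with peaks in every list. Lists without a peak in both genes add no difference, so the values of IGFBP2 and IGFBP3 are smaller by construction.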

How the data were processed

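Of 12 samples, 6 MeRIP samples have a deposited peak list each, assigned because the sample's description names it. The matching input carries the same description. Per the file headers, each peak has a position, exon blocks, a fold enrichment, a p-value and its log10, used here as a score of strength. The fold was read here as a linear ratio over input, which the header does not state. All are the authors' deposited values per peak, used to describe and rank peaks within a list. Build susScr11 and the tools HOMER, ChIPseeker 1.30.2 and FastQC 0.11.9 are credited to the submitters' processing notes. For aligner and peak caller, no name is given in the sources used here. Sequencing depth is unknown.

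Starts count from 0 and are printed after adding 1. Minus-strand exon numbers, which rise along the chromosome, were turned round. Overlap of at least 1 bp merged blocks. Peak numbers and exonic bases per gene (union of blocks) of the breeds were compared by two-sided exact permutation over lists. Benjamini-Hochberg adjustment ran over all 2159 genes. The plan named adjustment over 6 results and tests of sums over the 4 genes. These p-values are not given, since members and gene lists were chosen with earlier results of these data known. Named genes were the 4 members, the IGF system list, the 3 nearest genes to each member and cell type markers. Genes with several IDs in the closing section were named after their counts were seen. Alternatives were a stricter p or fold, equal list length, another overlap, a replicate block, 1 ID for IGFBP5 and leaving out each list. The counting code was run on simulated lists with planted breed-only genes. It finds these by definition, so this checks the code and not the calls in the real lists. Python 3.11.15, pandas 2.3.3, NumPy 2.4.6 and Matplotlib 3.10.9 were used.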

Additional observations from a re-analysis of the deposited data

How the results depend on the processing

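The breed patterns of IGFBP2 and IGFBP3, 2 genes in all, rest on peaks that are weak by p. Using the stronger 50% of each list by p left 0 of the 4 genes with a peak in 1 breed only, and 6 exonic regions with a peak in place of 12. A fold of at least 2 left 1 such gene, IGFBP2. With 2034 peaks from every list both genes stayed. Leaving out 1 list cannot end such a pattern, so its count of 2 is no check. The peaks per list over the 4 genes, 6 in Large White and 5.67 in Ningxiang, differ by 0.333. Leaving out 1 list gave -0.5 to 1, with -0.5 without Ningxiang replicate 2. With IGFBP5 counted under its own ID, chosen after seeing the data, that difference was 0.

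Same-numbered lists of the breeds were not said to be paired. Their deviations in peaks per gene had correlations of 0.0476, 0.0346 and -0.0160. With a replicate block, as a sign-flip test of the 3 differences, the difference of -1.33 for IGFBP2 and of 1 for IGFBP3 is the same by construction, and each had an exact p of 0.25, the smallest it allows. No call was at stake. With 3 lists per breed neither the exact permutation test nor the sign-flip test of a single gene can pass 0.05, so these p-values say nothing about stability. No depth is given in the lists, so the smallest detectable peak is unknown.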

Other observations

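IGFBP5 was not the only listed gene symbol with entries under more than 1 gene ID. In these lists 15 symbols carried peaks under 2 or more, with 225 entries in all. The symbol and the ID are given separately for each peak, so 1 symbol can hold the IDs of different genes. Whether it did so was not checked. In 10 of them, entries under different IDs shared exonic bases within a list, which held for 124 of the 225 entries. CREB1, a transcription factor of cyclic AMP signalling, had 38 such entries of 38, IGFBP5 22 of 22 and PIGY 18 of 18. MIC-2 had 57 entries under 6 IDs, and 0 of them shared bases. For those 10 symbols a count of entries is therefore higher than the count of separate sites.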
